A study of Mus musculus with 8 samples.

Results

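The genes described here are 10 markers of macrophages in the epididymal white fat of the mouse, a visceral depot attached to the epididymis. They were chosen by name, and every probe set that the platform annotation assigns to one of them was taken, which gave 13 of the 45037 probe sets and 10 of the 18193 named genes tested. Expression was measured on Affymetrix 3′ expression arrays, 1 per mouse, in 4 LPA4-KO and 4 WT mice. LPA4-KO mice were male and carried a deficient allele of the X-linked gene Lpar4 (Lpar4 -/Y), which encodes a receptor for lysophosphatidic acid. WT mice were their male littermates. All mice were 12 weeks old, of the C57BL/6 background and on standard chow, and the comparison asked how the fat pad differs without the receptor. The part of Lpar4 that was deleted is not given in the sources used here.

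Macrophages of fat take up dead adipocytes, debris and lipid, and their number and state follow the condition of the depot. Resident-type macrophages sit along vessels and carry scavenger and lectin receptors, whereas others arise from blood monocytes and accumulate when fat expands. The markers were read in 2 classes. Lyz2, Mpeg1, Cd68, Adgre1 and Csf1r mark macrophages at large and are called general markers. Mrc1, Cd163, Lyve1, F13a1 and Retnla mark resident-type or alternatively activated macrophages and are called resident-type markers. The division is one of convenience, since most of these genes are made by several macrophage populations and some by other cells.

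Levels are given in log2 as deposited, and differences are LPA4-KO minus WT with their SE. A probe set was called if the Benjamini-Hochberg adjusted p of limma over all 45037 probe sets was under 0.05, and varying if it spanned more than 0.1 log2 over the 8 arrays. Only 7584 probe sets (16.8%) varied. The remaining 37453, called nearly constant, spanned 0.00052 log2 at the median. They included very bright ones, such as the adipocyte gene Adipoq at 13.83 in both groups, so a flat value is no evidence that a gene was equal in the 2 genotypes. Cidec, another adipocyte gene, averaged 13.02 in LPA4-KO fat and 12.85 in WT fat, and the epididymal genes Lcn5 and Adam7 were nearly constant at 6.38 and 5.99. At 1 Lpar4 probe set the LPA4-KO arrays read 5.74 to 5.86 and the WT arrays 6.48 to 6.54 (adjusted p = 0.0040), while the other 2 Lpar4 probe sets differed by 0.48 ± 0.25 and 0.68 ± 0.24 (SE) in the opposite direction and were not called. In bulk tissue, fewer macrophages and less of a transcript per macrophage cannot be told apart.

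The upstream sequences of 4 members are shown because they represent both outcomes described below: Lyz2, Mpeg1 and Retnla separated the 2 genotypes, and Mrc1 did not. Each is the 250 bases before the transcription start in RefSeq (build GRCm38.p6), written 5′ to 3′ in the direction of transcription. Capitals mark GAGGAA, the core bound by PU.1, the transcription factor that defines the myeloid lineage, and TTGCNNAA, a short form of the site of C/EBP factors, on either strand (TTCCTC is GAGGAA read on the other strand). The positions are chr10:117282273-117282522 on the minus strand for Lyz2, chr19:12460520-12460769 on the plus strand for Mpeg1, chr16:48842359-48842608 on the plus strand for Retnla and chr2:14229164-14229413 on the plus strand for Mrc1.
Lyz2: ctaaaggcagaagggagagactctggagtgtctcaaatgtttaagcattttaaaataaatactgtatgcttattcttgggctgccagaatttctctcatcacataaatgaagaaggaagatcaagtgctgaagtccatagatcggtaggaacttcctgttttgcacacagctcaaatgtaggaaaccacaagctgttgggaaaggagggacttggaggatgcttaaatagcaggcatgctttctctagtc
Mpeg1: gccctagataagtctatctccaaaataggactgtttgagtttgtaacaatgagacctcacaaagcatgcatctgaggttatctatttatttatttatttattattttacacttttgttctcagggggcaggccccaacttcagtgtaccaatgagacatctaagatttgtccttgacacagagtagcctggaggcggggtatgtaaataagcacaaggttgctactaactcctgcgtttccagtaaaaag
Retnla: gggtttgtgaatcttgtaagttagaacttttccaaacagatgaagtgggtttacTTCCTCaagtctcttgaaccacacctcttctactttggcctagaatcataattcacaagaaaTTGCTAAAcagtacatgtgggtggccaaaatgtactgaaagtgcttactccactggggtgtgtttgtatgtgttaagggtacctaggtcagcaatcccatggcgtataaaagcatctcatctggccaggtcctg
Mrc1: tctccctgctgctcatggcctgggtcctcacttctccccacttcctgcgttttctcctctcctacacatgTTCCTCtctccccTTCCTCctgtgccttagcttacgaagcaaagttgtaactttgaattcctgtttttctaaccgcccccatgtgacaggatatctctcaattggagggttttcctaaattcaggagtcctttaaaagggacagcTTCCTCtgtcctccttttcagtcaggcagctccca
The 7 members with a sequence that was searched gave 8 windows, 2 of them for F13a1. Adgre1 and Lyve1 had no sequence in the sources used here. Csf1r was left out of the search by hand, so the counts below do not cover it. The share over all windows left out no chromosome. GAGGAA was held by 4 of the 8 (Cd68, Mrc1, 1 of F13a1 and Retnla), against 23.3% of all 32851 windows of this kind. TTGCNNAA was held by 2 of the 8 (Cd68 and Retnla), against 9.56% of all windows. Mrc1 held 3 copies of GAGGAA, which begin at positions -180, -167 and -35 from the start. The letters were absent from the Lyz2 and Mpeg1 windows. A match or its absence in this window says nothing about binding.

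No member was called over the whole table, although every varying one was lower on average in LPA4-KO fat. Of the 13 probe sets 12 varied, all 12 had a negative difference (57.3% of all varying probe sets did), and 0 passed in limma, where 0.668% of all probe sets did and 0.233% were called lower. An unadjusted limma p under 0.05 was reached by 6 of the 13 member probe sets. The share was 16.1% of all probe sets in either direction and 21.8% of varying ones in this direction. When the varying probe sets were fitted alone, Lyz2, Mpeg1 and Retnla fell, 3 of 12 probe sets, beside 10.5% of varying probe sets that were called lower. Varying status itself depends on the genotype difference, so counts over these 12 are a description. The same holds for calls of single genes in the varying probe sets alone, here and below. The varying probe sets were chosen on all arrays and kept when an array was left out. Those fits are therefore not independent of the array left out. The groups did not overlap at 4 of the 12, beside 15.9% of varying probe sets that separated in this direction. The median difference over 9 varying members, each read at its brightest probe set, was -0.30 log2, against -0.06 over all varying probe sets.

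**Figure D1:**
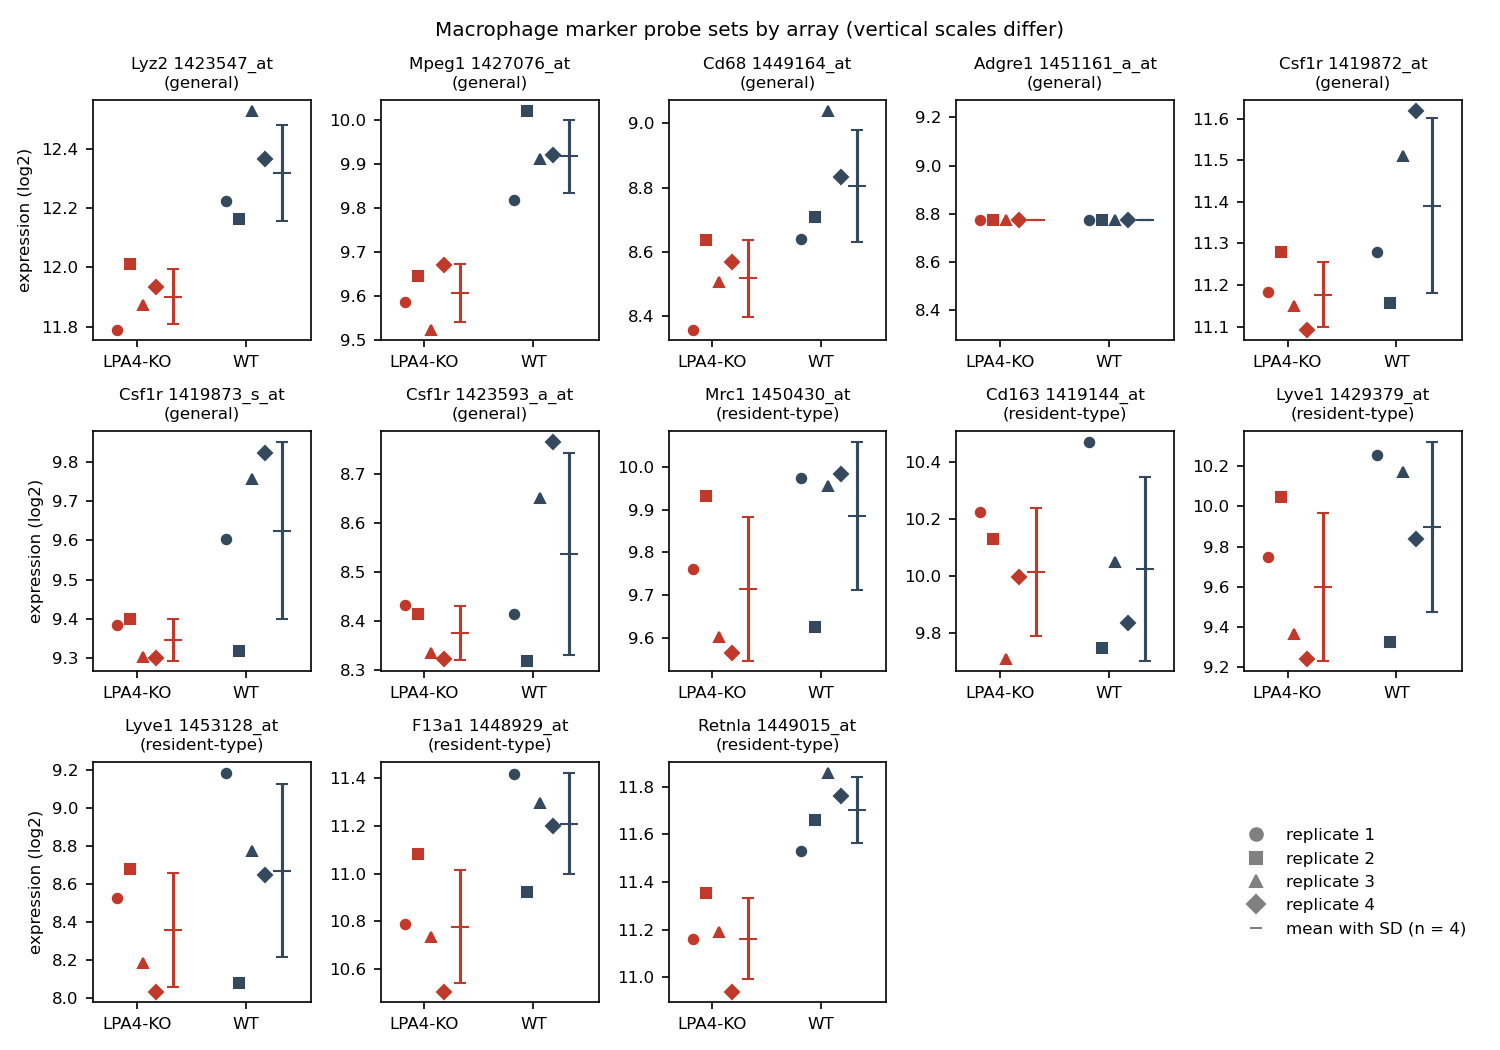
Expression (log2, vertical axes differ) at the 13 probe sets of the 10 macrophage markers in 4 LPA4-KO arrays (left) and 4 WT arrays (right). Symbols give the replicate, and the bar beside each group gives its mean and SD. All LPA4-KO points lie below all WT points for Lyz2, Mpeg1, Cd68 and Retnla.

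Lyz2, the lysozyme of macrophages and other myeloid cells, read 11.79, 12.01, 11.87 and 11.93 in LPA4-KO replicates 1 to 4, and 12.22, 12.16, 12.53 and 12.36 in WT replicates 1 to 4. Every LPA4-KO array lay below every WT array, so the groups did not overlap. The means were 11.90 ± 0.09 and 12.32 ± 0.16 (SD, n = 4 each), a 1.34-fold lower level (-0.42 ± 0.09, adjusted p = 0.104 over the whole table). Fitted with the varying probe sets alone it fell (adjusted p = 0.016), and that call held with each of the 8 arrays left out in turn (adjusted p from 0.019 to 0.046). The varying probe sets were each time those chosen on all 8 arrays. The exact permutation p was 0.029, the smallest that 70 arrangements of 4 against 4 arrays can give.

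Lyz2 has a neighbouring and very similar copy, Lyz1, and the signals of the 2 genes may mix on the array. The 3 probe sets annotated to Lyz1, of which 2 carry the suffix that Affymetrix gives to probe sets with probes matching other transcripts, were lower by 0.25, 0.68 and 0.62 on the log2 scale, with groups that did not overlap. At 1439426_x_at the LPA4-KO arrays read 11.41 to 11.87 and the WT arrays 12.07 to 12.56. The lysozyme result thus holds for the pair and cannot be assigned to Lyz2 by these data.

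Mpeg1, which encodes perforin-2, a pore-forming protein of phagocytes, read 9.59, 9.65, 9.52 and 9.67 in LPA4-KO replicates 1 to 4, and 9.82, 10.02, 9.91 and 9.92 in WT replicates 1 to 4. The groups did not overlap, and the spread within genotypes was the smallest among the varying members (pooled SD 0.07). The means were 9.61 ± 0.07 and 9.92 ± 0.08 (SD, n = 4 each), a 1.24-fold lower level (-0.31 ± 0.05, adjusted p = 0.066, exact permutation p = 0.029). It fell in the varying probe sets alone (adjusted p = 0.019), and lost that call without LPA4-KO replicate 1 or 3, where adjusted p reached 0.052.

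Cd68, the lysosomal glycoprotein macrosialin, read 8.36, 8.64, 8.51 and 8.57 in LPA4-KO mice, and 8.64, 8.71, 9.04 and 8.83 in WT mice. LPA4-KO replicate 2 and WT replicate 1 nearly met, at 8.638 and 8.641, so the separation was narrow. The difference was -0.29 ± 0.10 and was not called in either fit (adjusted p = 0.246, and 0.075 in the varying probe sets alone).

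Csf1r, the receptor for the macrophage growth factors Csf1 and Il34, was read by 3 probe sets that gave differences of -0.21 ± 0.11, -0.28 ± 0.11 and -0.16 ± 0.10, none of them called (adjusted p from 0.293 to 0.505). At the brightest, 1419872_at, the values were 11.18, 11.28, 11.15 and 11.09 in LPA4-KO mice, and 11.28, 11.16, 11.51 and 11.62 in WT mice. WT replicates 3 and 4 were high, and WT replicates 1 and 2 lay within the LPA4-KO range. The order of the WT arrays was the same at all 3 probe sets, with replicate 4 highest and replicate 2 lowest. Without WT replicate 2 the probe set 1419873_s_at was called in the varying probe sets (adjusted p = 0.024). With any other array left out it was not called there (adjusted p from 0.118 to 0.187).

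Adgre1, the gene of the macrophage surface antigen F4/80, was the member that could not be read. Its only probe set stayed at 8.77 in all 8 arrays, with a range of 0.001 log2, and belongs to the nearly constant ones.

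Among the resident-type markers, Retnla, a secreted protein that interleukin 4 induces in mouse macrophages, had the largest difference of all 13 probe sets. It read 11.16, 11.36, 11.19 and 10.94 in LPA4-KO replicates 1 to 4, and 11.53, 11.66, 11.86 and 11.76 in WT replicates 1 to 4. All LPA4-KO arrays were below all WT arrays. The means were 11.16 ± 0.17 and 11.70 ± 0.14 (SD, n = 4 each), a 1.46-fold lower level (-0.54 ± 0.11, adjusted p = 0.088, exact permutation p = 0.029). In the varying probe sets alone it fell (adjusted p = 0.012), and with each array left out the adjusted p ran from 0.012 to 0.036.

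F13a1, the A subunit of coagulation factor XIII, a transglutaminase that macrophages also make, read 10.79, 11.08, 10.73 and 10.50 in LPA4-KO mice, and 11.42, 10.92, 11.30 and 11.20 in WT mice. WT replicate 2 lay below LPA4-KO replicate 2, and no other pair of arrays crossed. The difference was -0.43 ± 0.15 (adjusted p = 0.244, exact permutation p = 0.057), and in the varying probe sets alone the adjusted p was 0.053. That value became 0.040 without LPA4-KO replicate 2, and 0.036 when WT replicate 2 was dropped instead. With any other array left out it rose, to between 0.089 and 0.111.

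Mrc1, the mannose receptor, read 9.76, 9.93, 9.60 and 9.56 in LPA4-KO mice, and 9.97, 9.63, 9.96 and 9.98 in WT mice. WT replicates 1, 3 and 4 lay close together above every LPA4-KO array, and WT replicate 2 stood alone within the LPA4-KO range. The difference was -0.17 ± 0.12, with a 95% interval from -0.45 to 0.11 (adjusted p = 0.535).

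Cd163, the scavenger receptor for haemoglobin bound to haptoglobin, had nearly equal means, with 10.02 ± 0.23 in LPA4-KO and 10.03 ± 0.32 in WT mice (SD, n = 4 each). It read 10.23, 10.13, 9.71 and 9.998 in LPA4-KO mice, and 10.47, 9.75, 10.05 and 9.84 in WT mice. The lowest array of all was an LPA4-KO one and the highest a WT one, with the others mixed between them. The difference was -0.01 ± 0.19, and its 95% interval, from -0.47 to 0.44, includes differences as large as that of Lyz2.

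Lyve1, a hyaluronan receptor of resident-type macrophages and of lymphatic endothelium, had the widest spread. At 1429379_at it read 9.75, 10.05, 9.36 and 9.24 in LPA4-KO mice, and 10.25, 9.32, 10.17 and 9.84 in WT mice. LPA4-KO mice spanned 0.803 and WT mice 0.929 log2, and the groups overlapped broadly. The differences at its 2 probe sets were -0.30 ± 0.27 and -0.31 ± 0.26 (adjusted p = 0.658 and 0.625). Both probe sets ordered the arrays of each genotype alike, from replicate 2 to replicate 4 in LPA4-KO mice and from replicate 1 to replicate 2 in WT mice, so the spread appeared at both.

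**Figure D2:**
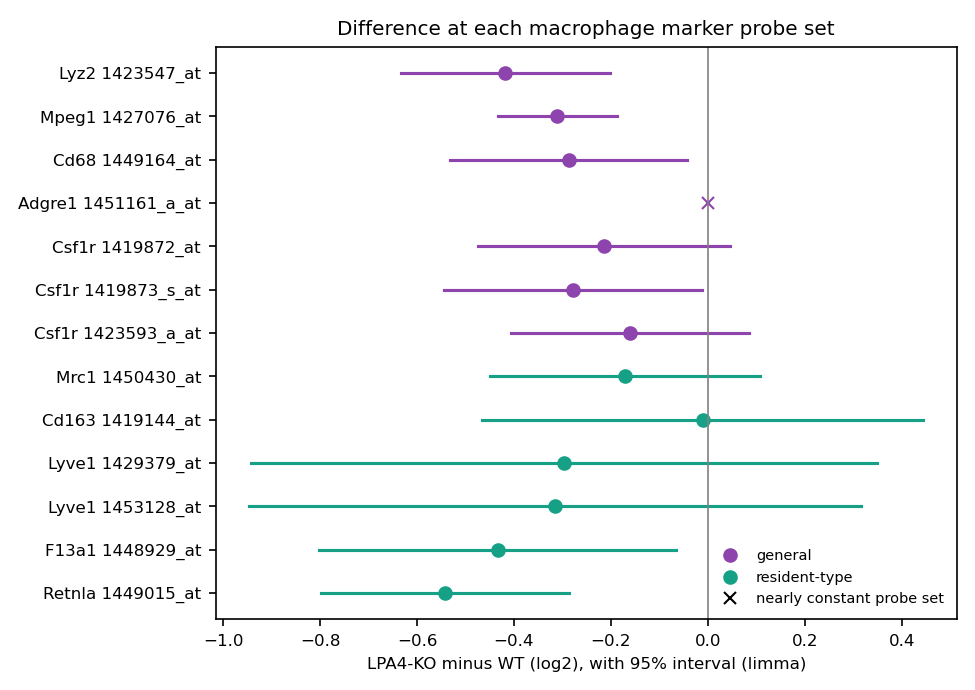
Difference between LPA4-KO and WT (log2, LPA4-KO minus WT) at each member probe set, with the 95% interval of the limma fit as a line. The intervals of Lyz2, Mpeg1, Cd68, F13a1, Retnla and 1 Csf1r probe set lie below 0, and those of Lyve1 and Cd163 are the widest.

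General and resident-type markers had about the same median difference between genotypes, and the resident-type ones spread more between mice. The median difference was -0.30 log2 over 4 varying general markers and -0.30 log2 over the 5 resident-type markers, and -0.23 over the resident-type markers without Retnla. Leaving out 1 array moved the general median between -0.34 and -0.26. It moved the resident-type median further, to -0.18 without either LPA4-KO replicate 4 or WT replicate 1, -0.45 without LPA4-KO replicate 2 and -0.49 when WT replicate 2 was dropped. The resident-type median is the value of Lyve1, the member with the widest spread, in the full set and in each of these 4 cases, so its shifts are those of 1 gene. The difference between the classes was described and not tested.

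The pooled SD within genotypes was 0.40 for Lyve1, 0.28 for Cd163, 0.23 for F13a1, 0.17 for Mrc1 and 0.16 for Retnla. Among general markers it was 0.16 for Csf1r, 0.15 for Cd68, 0.13 for Lyz2 and 0.07 for Mpeg1, and the median over all varying probe sets was 0.15. Lyve1, Cd163 and F13a1 thus varied more between mice of 1 genotype than the typical varying probe set.

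The arrays behind this spread were shared between markers. WT replicate 2 was the lowest WT array at 6 of the 9 varying members (Lyz2, Csf1r, Mrc1, Cd163, Lyve1 and F13a1), by 0.76 below the mean of the other WT arrays at Lyve1 and by 0.21 at Lyz2, but it was the highest WT array at Mpeg1. LPA4-KO replicate 2 was the highest LPA4-KO array at 7 of the 9. Averaged over the 5 resident-type markers, LPA4-KO replicates 1 to 4 stood at 10.34, 10.51, 10.12 and 10.05, and WT replicates 1 to 4 at 10.73, 10.26, 10.67 and 10.52. WT replicate 2 lay below 2 LPA4-KO arrays on this average. Over the 4 general markers LPA4-KO arrays ran from 10.23 to 10.39 and WT arrays from 10.49 to 10.75, with no overlap. Without WT replicate 2 the differences of Mrc1, Cd163, Lyve1 and F13a1 became -0.26, -0.10, -0.49 and -0.53, and none was called over the whole table (adjusted p from 0.209 to 0.867).

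**Figure D3:**
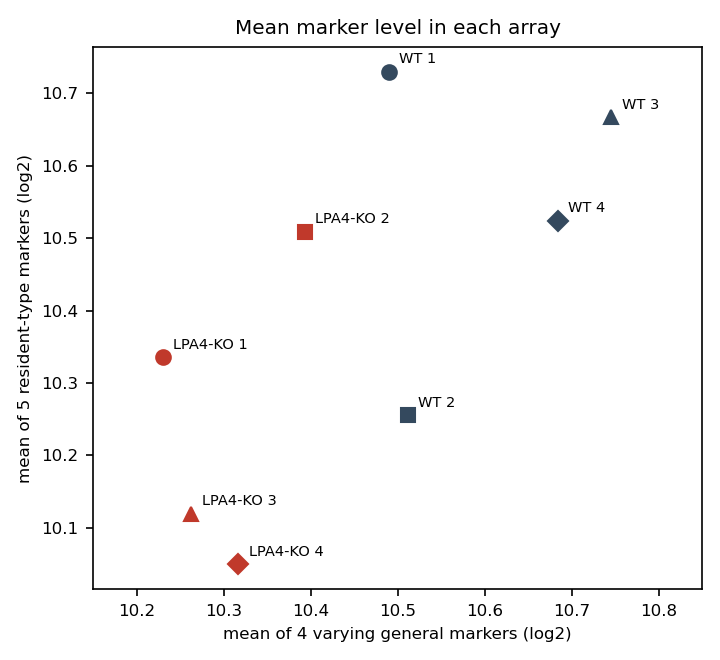
Mean level (log2) of the 4 varying general markers (horizontal) and of the 5 resident-type markers (vertical) in each array, labelled by genotype and replicate. LPA4-KO arrays lie left of all WT arrays, while vertically WT replicate 2, at 10.26, lies below LPA4-KO replicates 1 and 2.

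The profiles most like the members' were sought among 4020 other varying genes, by the root mean square difference over the 8 arrays between profiles centred on their own means. Nearest to the mean of the general markers was Lyz1 (0.040 log2), followed by Parva, Pdlim4, Wnt5a and Entpd2 (0.052 to 0.063). Lyz1 was read at 1436996_x_at, where Lyz2 signal may mix, and Lyz2 is part of that mean, so this rank is not independent of it. The mean of the general markers itself departed from its own average by 0.18. Nearest to the mean of the resident-type markers was Arhgap15 (0.062 log2), followed by Timd4, C1qa, Adcy7 and Cd52 (0.091 to 0.096), beside a departure of 0.23 for that mean. Timd4, a receptor for phosphatidylserine on resident macrophages, read 6.46, 6.503, 6.21 and 6.25 in LPA4-KO mice, and 6.64, 6.28, 6.77 and 6.71 in WT mice, again with WT replicate 2 low.

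Other genes of macrophages at large were also mostly negative, and 1 of them was called. Of 14 measured genes 10 varied, 8 with a negative difference and a median of -0.22, where 57.3% of all varying probe sets were negative. Lgmn, the lysosomal protease legumain, fell: it read 8.58, 8.72, 8.70 and 8.74 in LPA4-KO mice, and 8.9995, 9.04, 9.15 and 9.19 in WT mice, 1.33-fold lower (-0.41 ± 0.06, adjusted p = 0.044). Leaving out any 1 array ended that call over the whole table (adjusted p from 0.059 to 0.119), whereas in the varying probe sets alone Lgmn was called with each of the 8 arrays left out (adjusted p from 0.012 to 0.034). Laptm5, a lysosomal membrane protein of blood cells, had -0.33 ± 0.08 (adjusted p = 0.123, and 0.030 in the varying probe sets alone). Lgmn and Laptm5 were the 2 of the 10 called lower in that fit, beside 10.5% of all varying probe sets. The cathepsin gene Ctss, the brightest of the list, had -0.25 ± 0.09 (adjusted p = 0.255). The integrin gene Itgam had -0.40 ± 0.14 and the oxidase gene Cybb -0.37 ± 0.13, neither called. The 2 positive genes of the list were Aif1 (0.02 ± 0.12) and Mertk (0.08 ± 0.17).

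All 14 varying genes among 16 other resident-type markers had a negative difference, beside 57.3% of all varying probe sets. Their median was -0.28, and none was called over the whole table. Of the 14, Fcna, Gas6, Folr2, Clec10a, Cd209d and Cd209g had an unadjusted p under 0.05 in limma. Among all varying probe sets 21.8% had such a p in this direction. Fcna, which encodes the lectin ficolin A, read 9.06, 9.26, 8.81 and 8.77 in LPA4-KO mice, and 9.82, 9.71, 10.06 and 9.88 in WT mice. This was the largest difference of the list, 1.85-fold lower (-0.89 ± 0.13), with an adjusted p of 0.05003 just above the threshold, and 0.039 when each gene was represented by 1 probe set. Gas6, a ligand that bridges dying cells to phagocytes, had -0.56 ± 0.13 (adjusted p = 0.117). In the varying probe sets alone Fcna, Gas6, Folr2 and Clec10a fell, 4 of the 14, beside 10.5% of all varying probe sets called lower. The brightest gene of the list, the selenium carrier Selenop, was nearly constant at 13.34. The C1q chains C1qa, C1qb and C1qc had differences of -0.17, -0.21 and -0.19 and were not called (adjusted p from 0.379 to 0.640).

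Lists of other macrophage states had negative medians for monocyte, alternative activation and inflammatory genes, and WT replicate 4 stood alone at several monocyte and inflammatory genes. The median of lipid-associated genes was 0.06, with genes in both directions. Among genes of lipid-associated macrophages 6 of 11 measured varied, 2 of them negative and 4 positive, with no call over the whole table. Cd9 had -0.40 ± 0.12 (adjusted p = 0.184, and 0.039 in the varying probe sets alone) and Lipa -0.12 ± 0.06. The positive genes were Mmp12 (0.37 ± 0.25), Fabp5 (0.16 ± 0.10), Lgals3 (0.08 ± 0.17) and Gpnmb (0.04 ± 0.30). Their unadjusted p in limma ran from 0.155 to 0.891, so their direction was not resolved. Trem2, Itgax and Lpl, the brightest at 13.76, were nearly constant. All 5 varying monocyte genes were negative, with a median of -0.33, led by the chemokine receptor Ccr2, which read 7.84, 8.14, 7.61 and 7.48 in LPA4-KO mice, and 8.27, 8.60, 8.71 and 8.36 in WT mice (-0.72 ± 0.17, adjusted p = 0.124). Ccr2 fell in the varying probe sets alone (adjusted p = 0.019), and Vcan, a matrix proteoglycan gene, had -0.31 ± 0.15 (adjusted p = 0.383). At the monocyte genes Chil3 (-0.43 ± 0.45) and Clec4e (-0.32 ± 0.37) WT replicate 4 read 8.41 and 7.30, above every other array. The other WT arrays lay within the LPA4-KO range at both genes, so these 2 negative differences rest on 1 array. In alternative activation 4 of 8 varied, all negative with a median of -0.41. They were the chemokine gene Ccl24 (-0.50 ± 0.09, adjusted p = 0.083, and 0.016 in the varying probe sets alone), Clec10a (-0.39 ± 0.10, adjusted p = 0.139), Mgl2 and Chil3. Clec10a and Mgl2 are also in the other resident-type list and Chil3 in the monocyte list, so only Ccl24 adds to those lists. The negative difference of Chil3 rests on WT replicate 4 here too. Of 10 inflammatory genes 4 varied, with a median of -0.15, and the brightest, Ccl4, was nearly constant. The differences were -0.13 for Tnf, -0.17 for Ccl3, -0.30 for Cxcl2 and -0.06 for Ptgs2, none called. At Tnf, Ccl3 and Cxcl2 WT replicate 4 read 7.13, 7.07 and 7.24, above every other array. The other WT arrays read 6.14 to 6.33, 6.35 to 6.48 and 5.73 to 6.09. LPA4-KO arrays read 6.24 to 6.42, 6.33 to 6.54 and 5.84 to 6.35. These 3 negative differences thus rest mainly on 1 array.

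The growth factor Csf1, on which macrophages depend, read 7.69, 8.04, 7.78 and 7.53 in LPA4-KO mice, and 8.17, 7.94, 8.36 and 8.66 in WT mice. Only LPA4-KO replicate 2 and WT replicate 2 crossed. The difference was -0.52 ± 0.18 (adjusted p = 0.227, and 0.048 in the varying probe sets alone), while Il34, the other ligand of Csf1r, had 0.03 ± 0.07. The chemokine gene Cxcl12 had -0.49 ± 0.16 (adjusted p = 0.219, and 0.044 in the varying probe sets alone). Of 10 growth factors, attractants and their receptors 5 varied, 3 negative and 2 positive. Their median was -0.06, and that of all varying probe sets was also -0.06. Csf1 and Cxcl12 were the 2 called lower in the varying fit, beside 10.5% of all varying probe sets. Csf2rb had -0.06 ± 0.13 and Il33 0.14 ± 0.23. Among 9 transcription factors of macrophages 7 varied, 2 negative and 5 positive, and none was called. The nuclear receptor gene Nr1h3 had 0.22 ± 0.05 (adjusted p = 0.109), Cebpb had 0.28 ± 0.19, Pparg, the brightest, had 0.07 ± 0.10, and Spi1, the gene of PU.1, was nearly constant at 6.64.

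**Figure D4:**
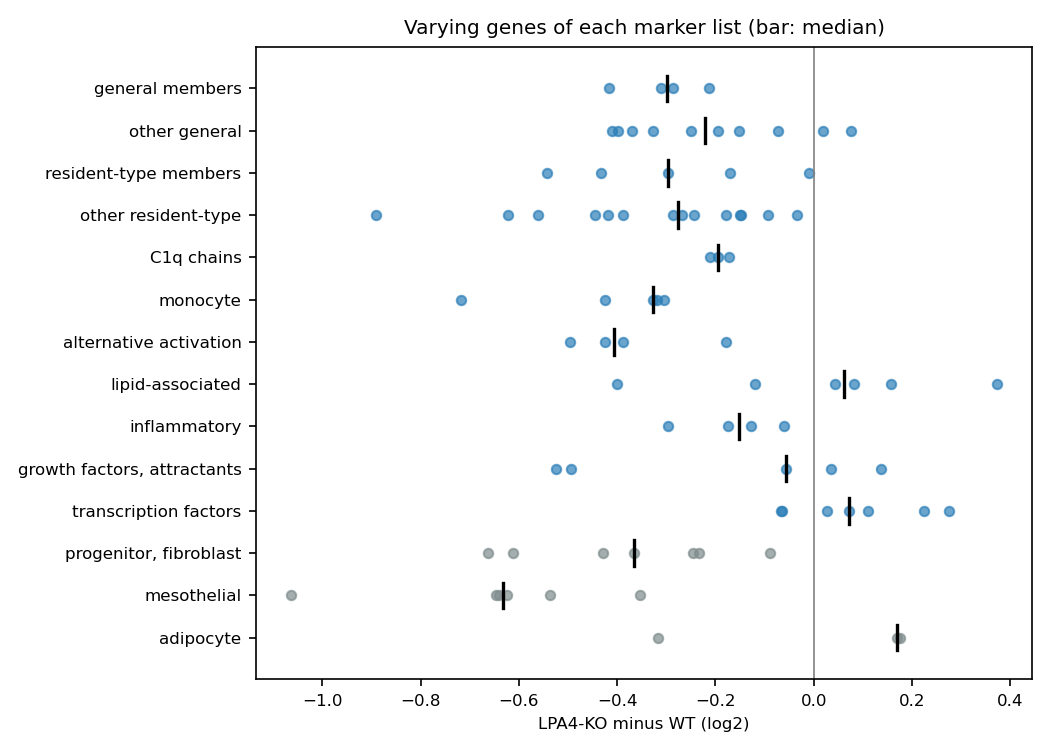
Difference between LPA4-KO and WT (log2, LPA4-KO minus WT) of each varying gene in lists of macrophage genes (blue) and of other cells of the fat pad (grey), with the median of each list as a bar. The general and resident-type members have medians of -0.30, the mesothelial list of -0.63 and the lipid-associated list of 0.06.

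Markers of several other cells of the pad were negative as well. All 7 markers of adipocyte progenitors and fibroblasts were negative, with a median of -0.37, and their mean over arrays ran from 9.34 to 9.69 in LPA4-KO mice and from 9.81 to 10.12 in WT mice. Dpt, the gene of the matrix protein dermatopontin, fell (-0.43 ± 0.04, adjusted p = 0.028), a call that ended over the whole table when any 1 array was left out (adjusted p from 0.054 to 0.082) and held each time in the varying probe sets alone (adjusted p from 0.010 to 0.021). Dpp4, a peptidase gene of progenitors, had -0.61 ± 0.14 and Dcn, the brightest of the list, -0.25 ± 0.09, neither called over the whole table. In the varying probe sets alone 3 of the 7 fell, Dpt, Pdgfra and Dpp4 (adjusted p = 0.0059, 0.018 and 0.018). The share called lower over all varying probe sets was 10.5%. All 6 mesothelial markers were negative, with a median of -0.63 and means from 7.69 to 8.23 in LPA4-KO mice and from 8.16 to 9.02 in WT mice. Gpm6a had -1.06 ± 0.29 (adjusted p = 0.156), Lrrn4 -0.54 ± 0.18 and Upk3b, the brightest, -0.62 ± 0.22, none called over the whole table. These 3 of the 6 fell in the varying probe sets alone (adjusted p = 0.023, 0.047 and 0.049). Cidec and Retn, genes of adipocytes, were positive at 0.17 ± 0.07 and 0.18 ± 0.06, and Lep, the leptin gene, was negative at -0.32 ± 0.36, none of them called. The part of these cell types in the macrophage values was not tested.

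For Lyz2, which neutrophils also make, S100a8 and S100a9 had -0.21 ± 0.18 and -0.07 ± 0.04, and Csf3r and Cxcr2 were nearly constant. For Lyve1, the lymphatic genes Mmrn1 and Reln had 0.32 ± 0.25 and 0.36 ± 0.20, and Prox1 and Flt4 were nearly constant. Pdpn had -0.49 ± 0.15 (adjusted p = 0.193, and 0.039 in the varying probe sets alone). The part of neutrophils and lymphatic endothelium in the Lyz2 and Lyve1 values was not tested. All 5 measured T cell markers, Cd3e the brightest, were nearly constant. The 3 varying B cell markers, Ighm, Cd79b (-0.41 ± 0.26) and Ms4a1 (-0.25 ± 0.26), were negative and spread widely, with Ighm averaging 9.16 ± 1.18 over LPA4-KO arrays and 9.78 ± 1.40 over WT arrays (SD, n = 4 each). The dendritic cell gene Cd209a had -0.44 ± 0.11 (adjusted p = 0.131, and 0.029 in the varying probe sets alone). The mast cell genes Kit and Cpa3 had -0.34 ± 0.27 and -0.12 ± 0.32, neither called. The endothelial genes Pecam1 and Emcn had -0.32 ± 0.19 and 0.28 ± 0.12, neither called. The dendritic gene Zbtb46 and the endothelial gene Cdh5 were nearly constant.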

How the data were processed

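RNA of epididymal fat from 4 LPA4-KO and 4 WT mice was measured on 1 Affymetrix array each. The authors deposited 1 summarised log2 value per probe set and array; the scale is inferred from the values (5.27 to 14.07). R 2.14.0 is named in the submitters' processing notes. The sources used here do not name the background correction, normalization, summarisation or logarithm's base, and every fold rests on that inferred scale.

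Of 45101 probe sets, 64 controls were left out and 34945 carried 1 gene symbol in the platform annotation. Groups came from the labels. All 45037 probe sets were fitted with limma 3.58.1 in R 4.3.3 (lmFit, eBayes with a trend, no block) with Benjamini-Hochberg adjustment, and single probe sets also with an exact two-sided permutation test (scipy 1.17.1). Varying means a range over 0.1 log2. A gene outside the members was read at its brightest probe set. Each list is described by its counts, its called genes, the 2 genes of smallest p and the brightest. Genes named beyond that rule (such as Folr2, Itgam, Cybb, Aif1, Mertk, Lep, Trem2, Itgax, Mmp12, Fabp5, Lgals3, Gpnmb, Chil3, Clec4e, Pdgfra, Spi1 and Il34) were chosen with their values known. The members, the lists and the varying limit were chosen with earlier results of these data known. The fits were tested on simulated data. The labels call the samples biological replicates, so p-values measure the spread between mice, and precision is limited by having 4 arrays a group.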

Additional observations from a re-analysis of the deposited data

Results flagged for a closer look

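A single array stood far from its group at 1 of the members. At Mrc1 (1450430_at) WT replicate 2 read 9.63, and its gap to the next WT array was 0.92 of the whole WT range, above Dixon's 95% critical value for 4 samples. The group was 1 of 32 examined (13 member and 3 Lpar4 probe sets in 2 genotypes), of which chance would mark about 5%. The same array was the lowest WT array at 5 other varying members without passing this limit.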

How the results depend on the processing

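In the whole-table analysis, 301 probe sets were called (196 higher, 105 lower). The count was 595 above the median level, 458 with array weights, 1143 at an adjusted p under 0.1, 3 with the replicate number as a block, and 26275 (24945 higher, 1330 lower) after quantile normalization; the cause was not tested. Varying probe sets alone gave 1417 (617 higher, 800 lower), 1337 with a limit of 0.2 log2, 1382 after quantile normalization (868 higher, 514 lower) and 1427 after median centring (793 higher, 634 lower). With 1 array left out the count ran from 0 (without WT replicate 4; 6658 had an unadjusted p under 0.05 in limma) to 112 (without WT replicate 1).

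Of the members 0 were called, and 0 with any 1 array left out or under the replicate block. The count was 1 (Mpeg1) above the median level and with array weights, where 1.11% and 0.397% of the fitted probe sets were called lower. At an adjusted p under 0.1 it was 2 (Mpeg1 and Retnla), beside 519 of all 45037 probe sets called lower. In the varying probe sets it was 3 under each scaling. There 10.5% were called lower as deposited, 6.78% after quantile normalization and 8.36% after median centring. With a limit of 0.2 log2 it was 4, beside 10.6% called lower. After quantile normalization of the whole table it was 4 (58.3% of all probe sets were called there, 2.95% lower). It was 2 to 5 in the varying probe sets with 1 array left out, an alternative added after seeing the data. In that alternative 3.9% to 10.7% of all varying probe sets were called lower. Deviations of same-numbered arrays from their group means correlated at 0.06, 0.08, 0.27 and -0.19, and those of differently numbered arrays at -0.26 to 0.29. Centring on groups of 4 arrays holds such correlations near 0 on average, so they cannot decide whether replicate numbers pair the mice. Of 385 results for single member probe sets, 8 changed sign, all at Cd163 or Adgre1. Cd163 became 0.0025 and 0.019 after quantile normalization and median centring of the varying probe sets, 0.015 with array weights, and with 1 array left out it ran from -0.103 (WT replicate 2) to 0.138 (WT replicate 1), with 0.092 for LPA4-KO replicate 3. Adgre1 ran from -3.4e-05 (WT replicate 2) to 0.000137 (WT replicate 3). The median differences of both classes kept their sign under every alternative run, from -0.34 to -0.26 for general markers and from -0.49 to -0.18 for resident-type markers with 1 array left out.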
